A study of Mus musculus with 12 samples.

Results

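The genes described here are 10 markers of muscle protein breakdown: the ubiquitin ligases Fbxo32 and Trim63, the forkhead transcription factors Foxo1 and Foxo3, and the autophagy genes Ulk1, Becn1, Map1lc3a, Map1lc3b, Gabarapl1 and Sqstm1. They were taken by name from the gene symbols of a transcript table covering 33641 symbols, and the transcript rows of each symbol were added up. All 10 were among the 13158 genes with at least 1 TPM (a length-adjusted share of a library's transcripts, scaled to sum to 1000000) in at least 3 of the 12 samples. Heart muscle (myocardium) was sampled from wild-type C57BL/6 males aged about 16 weeks. Mice had sham surgery or a myocardial infarction (MI, the death of heart muscle after its blood supply is cut) and, starting 2 weeks later, 6 weekly injections. Each injection held vehicle or 1 mg/kg of prednisone, a synthetic glucocorticoid, and was given into the peritoneum at lights-on. Tissue was collected 24 hours after the last injection, which gave the groups sham vehicle, sham prednisone, MI vehicle and MI prednisone with 3 mice each. The labels do not say how the infarct was made, nor whether the tissue came from the scar, its border or the remote wall.

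In striated muscle, FoxO factors enter the nucleus when insulin signalling through AKT is low and switch on genes of both major routes of protein breakdown. Fbxo32 (atrogin-1) and Trim63 (MuRF1) are the best known of these targets. They attach ubiquitin to muscle proteins and so mark them for the proteasome. Autophagy is the other route: the ULK1 kinase and the lipid kinase complex around BECN1 start a membrane, ATG8 proteins such as LC3 and GABARAPL1 are fixed to it, and SQSTM1 (p62) brings in ubiquitinated cargo. Glucocorticoids given every day are a classical cause of skeletal muscle wasting, and Fbxo32 and Trim63 are the usual readouts of it.

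Trim63 is shown at the sequence level because its start region held letters of both a FoxO motif and a glucocorticoid receptor motif. RefSeq promoter windows, 250 bases before to 50 after the start, were matched for 7 of the 10 genes (Trim63, Foxo1, Foxo3, Map1lc3b, Sqstm1, Gabarapl1 and Ulk1). Fbxo32, Map1lc3a and Becn1 had none. The motifs searched on both strands were the FoxO site GTAAACA, the E-box TCACGTGA bound by the lysosomal regulators TFEB and TFE3, and AGAACA, which is one arm of the glucocorticoid response element. Of 32851 promoter windows of that length, 3.65% held the FoxO site, 0.974% the E-box and 19.0% AGAACA. Among the 7 genes, 1 window, that of Trim63, held a FoxO match and the same window held the only AGAACA match. None of the 7 held the E-box. The 250 bases before the Trim63 start (GRCm38.p6, chr4:134314870-134315119, plus strand) follow, with both matches in capitals. The reverse strand's glucocorticoid letters TGTTCT begin at position -200 from the start and the FoxO letters TGTTTAC begin at -194, so that they adjoin.

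Trim63 promoter: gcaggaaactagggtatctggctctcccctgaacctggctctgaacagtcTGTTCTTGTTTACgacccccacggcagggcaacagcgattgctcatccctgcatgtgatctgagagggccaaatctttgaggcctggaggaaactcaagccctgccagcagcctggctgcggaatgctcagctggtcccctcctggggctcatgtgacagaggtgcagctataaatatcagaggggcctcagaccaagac

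The letters tgaacagtc just before the marked TGTTCT begin with tgaaca, which differs from AGAACA in its first letter. Only exact matches to a single arm were searched for, so a full element was not scored. These are letter matches in 1 window, and factor binding was not measured.

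Libraries differed in ways that touch every value below. A TPM value is a share and carries no read depth. MI vehicle replicate 3 stood apart: it had 14307 genes at 1 TPM or more, against 11690 to 12772 in the others, and its median gene lay 0.74 log2 above the sham vehicle mean, against -0.07 to 0.25 in the others. The median of all genes tested differed by 0.39 log2 from sham to MI in vehicle mice and by -0.41 from vehicle to prednisone in MI mice, and by 0.19 and -0.22 with that library left out. Dividing each library by a median-ratio size factor brought these medians to 0.02 and -0.02. A correction of each library for transcript length brought them to -0.02 and 0.03, and the effects of both are given beside the results. The cell type markers moved as well. In MI vehicle the 8 cardiomyocyte markers summed to 21900 to 28100 TPM, against 32100 to 38600 over both sham groups and 33500 to 37900 in MI prednisone. The 7 fibroblast markers summed to 890 to 1150 TPM in MI vehicle, 305 to 516 in MI prednisone and 379 to 516 over the sham groups. The 6 macrophage and leukocyte markers summed to 424 to 1120 TPM in MI vehicle, 199 to 396 in MI prednisone and 170 to 274 in the sham groups. The 4 atrial markers summed to 845 to 2690 TPM over the sham groups, 2800 to 4110 in MI vehicle and 4330 to 6170 in MI prednisone. The 4 smooth muscle markers summed to 95.3 to 173 TPM in MI vehicle, 76.5 to 91.3 in MI prednisone and 72.1 to 75.9 in the sham groups. The 5 endothelial markers summed to 191 to 263 TPM in MI vehicle, 172 to 196 in MI prednisone and 145 to 193 in the sham groups. The 4 adipocyte markers spread from 15.4 to 1360 TPM in MI vehicle, 231 to 777 in MI prednisone and 15.4 to 310 in the sham groups, and the 7 skeletal muscle markers summed to at most 27.4 TPM. No marker was at 0 in every library. In bulk tissue, fewer cells of a type and less RNA per cell cannot be told apart, and the part of these markers in the results was not tested.

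Map1lc3a was the highest and Foxo1 the lowest of the 10 in every group. Averaged over the 12 mice, Map1lc3a was at 412 TPM, followed by Sqstm1 (186 TPM), Map1lc3b (135 TPM), Trim63 (81.1 TPM), Gabarapl1 (70.5 TPM) and Becn1 (46.6 TPM). Ulk1 (20.6 TPM), Fbxo32 (17.8 TPM), Foxo3 (10.98 TPM) and Foxo1 (3.44 TPM) were lower. TPM is per length, so these levels can be set beside each other, within the limit that the libraries also differed with transcript length. In sham vehicle mice Ulk1 and Fbxo32 overlapped, and no other neighbours in this order did. In each infarcted group Trim63 and Gabarapl1 overlapped. Ulk1 and Fbxo32 also overlapped in MI prednisone, and Trim63 and Becn1 in MI vehicle.

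**Figure D1:**
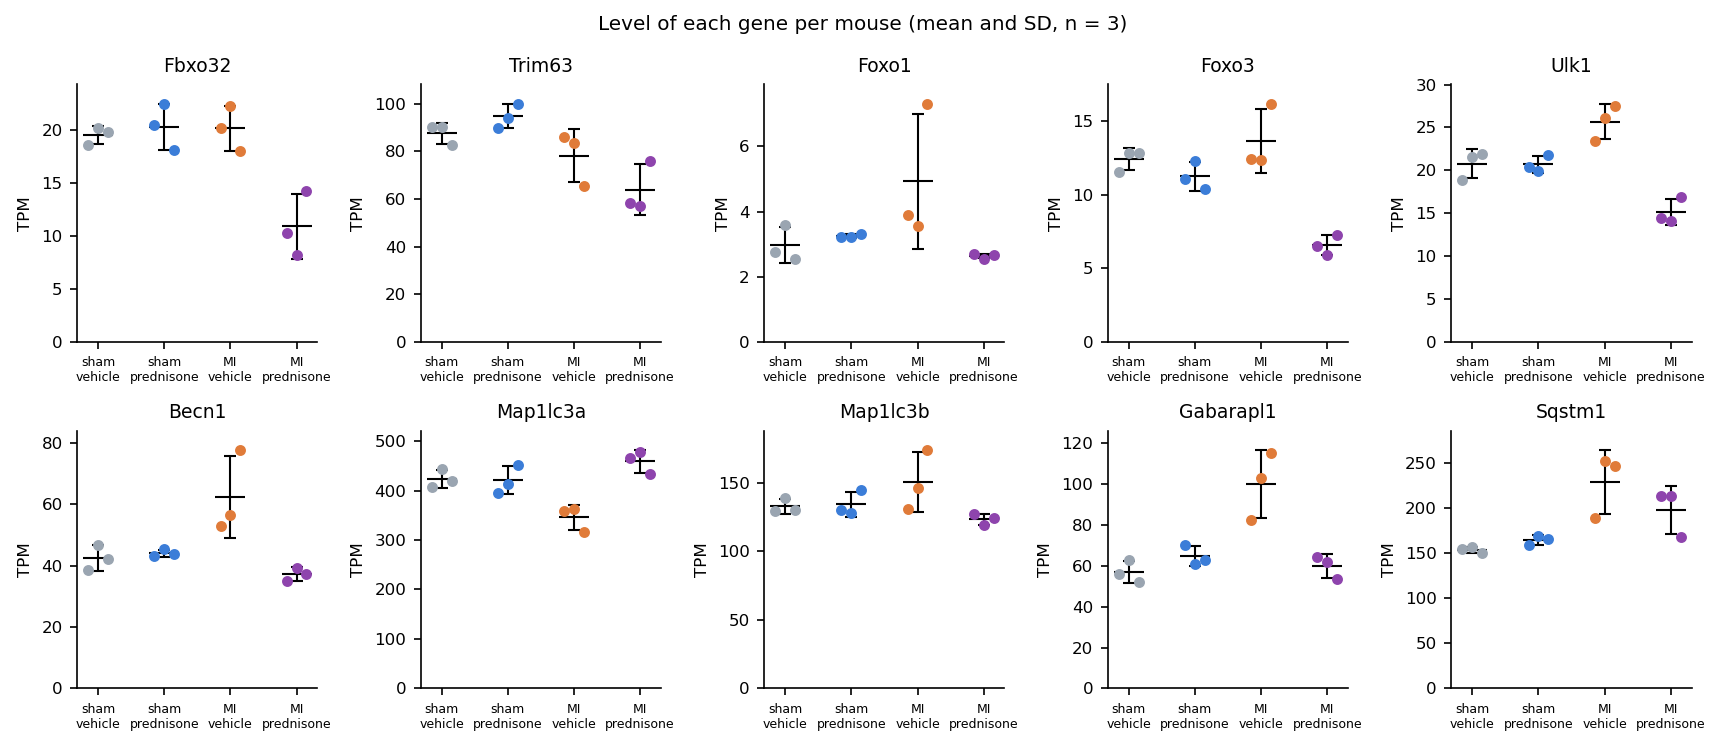
Level in TPM (y axis, from 0) of each of the 10 genes in every mouse (points) with the group mean and SD (bars, n = 3), in sham vehicle, sham prednisone, MI vehicle and MI prednisone. The MI prednisone points of Fbxo32, Foxo3, Ulk1 and Map1lc3b lie below all 9 other mice. The MI vehicle points of Gabarapl1, Becn1 and Ulk1 lie above all 9 other mice, and those of Map1lc3a lie below them.

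The muscle ubiquitin ligases came first. Fbxo32, the substrate-binding subunit of an SCF ubiquitin ligase (chromosome 15, 58175879 to 58214932, minus strand, GRCm38), stood at like levels in sham and infarcted vehicle mice and was lower in infarcted mice on prednisone. Its levels were 18.6, 20.2 and 19.9 TPM in sham vehicle, 20.5, 22.5 and 18.1 TPM in sham prednisone, 20.2, 22.3 and 18.1 TPM in MI vehicle and 10.3, 8.23 and 14.2 TPM in MI prednisone. All 3 MI prednisone mice were below all other mice, and the other 3 groups overlapped. The group mean fell from 20.2 ± 2.11 TPM in MI vehicle to 10.9 ± 3.06 TPM in MI prednisone (SD, n = 3), that is, it fell by 45.9%. On the log2(TPM + 1) scale the difference was -0.86 (SE 0.17, limma with Benjamini-Hochberg adjustment over all 13158 genes, adjusted p = 0.0039), and it stayed called with each of the 12 mice left out in turn (adjusted p at most 0.0171). MI against sham in vehicle mice gave 0.04 with a 95% interval of -0.33 to 0.41 (adjusted p = 0.859). After median-ratio rescaling the prednisone difference in MI mice was -0.43 and was not called (adjusted p = 0.21). The length correction left -0.16 (adjusted p = 0.603).

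Trim63, a RING-finger ligase of the sarcomere (chromosome 4, 134315120 to 134329629, plus strand), moved less. It was at 90.4, 90.1 and 82.6 TPM in sham vehicle and 90.0, 94.2 and 100.1 TPM in sham prednisone. In MI vehicle it was at 85.9, 83.4 and 65.3 TPM, and in MI prednisone at 58.2, 57.2 and 76.2 TPM. The infarcted groups overlapped each other, and MI prednisone lay below both sham groups. Prednisone against vehicle in MI mice gave -0.29 (SE 0.14, adjusted p = 0.108 by limma). The same difference was called without MI vehicle replicate 3 (-0.41, adjusted p = 0.0282) or without MI prednisone replicate 3 (-0.42, adjusted p = 0.0266), the mice nearest to the opposite group. MI against sham was -0.57 among prednisone mice (adjusted p = 0.0152 by limma) and -0.17 among vehicle mice (adjusted p = 0.315). The former was not called after rescaling (-0.47, adjusted p = 0.16) or without sham prednisone replicate 2 or 3 or MI prednisone replicate 1 or 2 (adjusted p = 0.0528, 0.0617, 0.0717 and 0.0699).

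A ratio of genes within a library does not depend on a factor applied to the whole library, but transcripts of unequal length enter it (6976 bases for Fbxo32, 1886 for Trim63-202). Fbxo32 stood at 0.236 to 0.276 of the Trim63 level in MI vehicle and at 0.144 to 0.187 in MI prednisone, and the groups did not overlap. The mean log2 ratio went from -1.95 ± 0.12 to -2.57 ± 0.20 (SD, n = 3), a difference of -0.62. The two-sided exact permutation test gave p = 0.1, the smallest that 3 against 3 mice allow, and 0.15 after adjustment over the 6 ratio tests made. Corrected for length the 2 genes differed less, at -0.16 for Fbxo32 and 0.065 for Trim63 in that comparison. From sham vehicle to MI vehicle the log2 ratio differed by 0.22 (exact p = 0.2, adjusted 0.24).

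Both FoxO genes were lower with prednisone in infarcted mice, and neither was called in MI against sham vehicle mice. Foxo3 (chromosome 10, 42181841 to 42276755, minus strand) was at 11.6, 12.9 and 12.9 TPM in sham vehicle, 11.1, 12.3 and 10.4 TPM in sham prednisone, 12.4, 12.4 and 16.2 TPM in MI vehicle and 6.55, 5.90 and 7.27 TPM in MI prednisone. The 3 MI prednisone mice were the lowest of the 12. The prednisone difference in MI mice was -0.95 log2 (SE 0.13, adjusted p = 0.00106 by limma), from 13.7 ± 2.21 to 6.58 ± 0.68 TPM (SD, n = 3). It was called after median-ratio rescaling too (-0.53, adjusted p = 0.0123). It was not called after correction for transcript length (-0.26, adjusted p = 0.0865). Against sham prednisone, MI prednisone was lower by -0.70 (adjusted p = 0.00602 by limma) and by -0.60 after rescaling (adjusted p = 0.00839), and the length correction ended that call (-0.26, adjusted p = 0.0963).

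Foxo1 (chromosome 3, 52268336 to 52353221, plus strand) was the lowest of the genes, so that the added 1 TPM compresses its log2 changes. It was at 2.76, 3.59 and 2.53 TPM in sham vehicle and 3.21, 3.22 and 3.32 TPM in sham prednisone. In MI vehicle it was at 3.90, 3.56 and 7.32 TPM, where the high value is that of replicate 3, the library that stood apart. In MI prednisone it was at 2.70, 2.56 and 2.65 TPM, below all MI vehicle mice. The prednisone difference in MI mice was -0.65 (SE 0.21, adjusted p = 0.0316 by limma), and -0.38 (adjusted p = 0.0428) without MI vehicle replicate 3. It was not called without any 1 of the MI prednisone mice (adjusted p = 0.074, 0.0754 and 0.0682 without replicates 1, 2 and 3) or after rescaling (-0.28, adjusted p = 0.094), and it was 0.06 (adjusted p = 0.785) after the length correction. MI against sham vehicle mice gave 0.54 (adjusted p = 0.0845), which was 0.26 (adjusted p = 0.204) without MI vehicle replicate 3 and 0.65 (adjusted p = 0.0444) without MI vehicle replicate 1. The Foxo1 to Foxo3 ratio within libraries was 0.197 to 0.279 in sham vehicle and 0.288 to 0.451 in MI vehicle, where replicate 3 was the highest. These groups did not overlap and differed by 0.55 log2 (exact permutation p = 0.1, adjusted 0.15). From MI vehicle to MI prednisone the log2 ratio differed by 0.23 (exact p = 0.4).

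The genes that start autophagosomes had their highest group means in MI vehicle and their lowest in MI prednisone. Ulk1, the initiating kinase (chromosome 5, 110784488 to 110810097, minus strand), was at 18.8, 21.6 and 21.9 TPM in sham vehicle, 20.4, 19.9 and 21.8 TPM in sham prednisone, 23.4, 26.1 and 27.5 TPM in MI vehicle and 14.4, 14.1 and 16.9 TPM in MI prednisone. The MI groups overlapped neither each other nor the sham groups. Only the falls passed the test: -0.73 for prednisone in MI mice (SE 0.11, adjusted p = 0.00148 by limma) and -0.43 for MI against sham in prednisone mice (adjusted p = 0.0246). The difference for MI against sham in vehicle mice, 0.30 (adjusted p = 0.0799), was called only without MI vehicle replicate 1 (0.36, adjusted p = 0.0358). The MI against sham fall in prednisone mice was not called when any sham prednisone mouse (adjusted p = 0.0726, 0.0644 and 0.0909 without replicates 1, 2 and 3) or MI prednisone replicate 1 or 2 (adjusted p = 0.0976 and 0.099) was left out. After rescaling neither fall was called (-0.29, adjusted p = 0.133, and -0.33, adjusted p = 0.0965). Corrected for length they were -0.084 (adjusted p = 0.636) and -0.092 (adjusted p = 0.625).

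Becn1, the scaffold of the lipid kinase complex that nucleates the membrane (chromosome 11, 101285952 to 101302286, minus strand), was at 38.6, 46.9 and 42.1 TPM in sham vehicle and 43.1, 45.4 and 44.0 TPM in sham prednisone. It was at 53.0, 56.7 and 77.8 TPM in MI vehicle and 35.0, 39.4 and 37.4 TPM in MI prednisone. MI vehicle mice were above all others. The rise from sham was 0.53 (SE 0.14, adjusted p = 0.0316 by limma) and the fall with prednisone was -0.71 (SE 0.14, adjusted p = 0.00365). The rise was not called without sham vehicle replicate 1 or 3 (adjusted p = 0.117 and 0.112), sham prednisone replicate 1 or 2 (adjusted p = 0.0509 and 0.0506) or MI vehicle replicate 3 (0.36, adjusted p = 0.0541), nor after rescaling (0.09, adjusted p = 0.492). The fall was called after rescaling (-0.26, adjusted p = 0.0352) and after the length correction (-0.47, adjusted p = 0.0106). It was not called in the most abundant transcript of Becn1 alone (-0.16, adjusted p = 0.473 by limma on transcripts).

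Among the ATG8 genes, Gabarapl1 and Map1lc3a moved in opposite directions. Gabarapl1, a GABARAP-type ATG8 protein (chromosome 6, 129533160 to 129542346, plus strand), was at 56.1, 62.9 and 52.0 TPM in sham vehicle, 70.5, 61.1 and 62.8 TPM in sham prednisone, 82.3, 102.9 and 115 TPM in MI vehicle and 64.4, 61.9 and 53.5 TPM in MI prednisone. MI vehicle lay above the other 3 groups, which overlapped. It rose by 0.79 log2 with infarction in vehicle mice (SE 0.14, adjusted p = 0.00922 by limma; 75.8% on group means) and fell by 0.72 with prednisone in MI mice (SE 0.14, adjusted p = 0.00312), and on group means it fell by 40.1%. The rise was called in 11 of the 12 fits that left out 1 mouse and was 0.73 (adjusted p = 0.0567) without sham vehicle replicate 3. After rescaling the rise was 0.36 (adjusted p = 0.0758) and the fall -0.27 (adjusted p = 0.0979), while the length correction kept the fall (-0.39, adjusted p = 0.0432).

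Map1lc3a (LC3A; chromosome 2, 155276297 to 155278073, plus strand) was at 408, 443 and 419 TPM in sham vehicle and 396, 414 and 452 TPM in sham prednisone. It was at 359, 363 and 316 TPM in MI vehicle and 466, 478 and 434 TPM in MI prednisone. MI vehicle mice were below all others. Prednisone in MI mice gave a rise by 0.41 log2 (SE 0.09, adjusted p = 0.00674 by limma), which was 0.87 after rescaling (adjusted p = 0.00669). It was 0.54 (adjusted p = 0.0659) after the length correction. MI against sham in vehicle mice was -0.29 (adjusted p = 0.0513), -0.74 after rescaling (adjusted p = 0.0397), -0.32 without MI vehicle replicate 1 (adjusted p = 0.0332) and -0.29 without MI prednisone replicate 3 (adjusted p = 0.0467). It was not called in the other 10 fits that left out 1 mouse, among them -0.23 without MI vehicle replicate 3 (adjusted p = 0.133). The length correction gave -0.67 (adjusted p = 0.0536).

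Map1lc3b (LC3B, the form usually measured as an autophagosome marker; chromosome 8, 121590361 to 121598760, plus strand) was at 128 to 145 TPM over both sham groups, 131, 146 and 174 TPM in MI vehicle and 127, 119 and 124 TPM in MI prednisone. Prednisone against vehicle in MI mice was -0.27 (adjusted p = 0.0677 by limma), and -0.37 (adjusted p = 0.0168) without MI vehicle replicate 1. Without MI vehicle replicate 3 it was -0.16 (adjusted p = 0.199). After rescaling it was 0.19 (adjusted p = 0.184), the opposite direction. Within libraries the ratio of Map1lc3b to Map1lc3a was 0.31 to 0.317 in sham vehicle, 0.365 to 0.55 in MI vehicle and 0.249 to 0.287 in MI prednisone. No pair of these groups overlapped. The log2 differences were 0.46 for MI against sham and -0.68 for prednisone in MI mice, each with an exact permutation p = 0.1 (adjusted 0.15). Without MI vehicle replicate 3 they were 0.29 and -0.51.

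Sqstm1, the cargo receptor (chromosome 11, 50199366 to 50210827, minus strand), was at 155, 157 and 149.8 TPM in sham vehicle and 159, 169 and 166 TPM in sham prednisone. It was at 189, 252 and 247 TPM in MI vehicle and 213, 213 and 168 TPM in MI prednisone. MI vehicle lay above both sham groups and overlapped MI prednisone. The rise with infarction in vehicle mice was 0.56 (SE 0.13, adjusted p = 0.0209 by limma), or 49.1% on group means, and 0.12 (adjusted p = 0.613) after rescaling. It was not called without sham vehicle replicate 1 or 3 (adjusted p = 0.0764 and 0.09) or MI vehicle replicate 2 or 3 (adjusted p = 0.0502 and 0.0536). Prednisone against vehicle in MI mice was -0.21 (adjusted p = 0.211), and -0.34 (adjusted p = 0.0314) without MI vehicle replicate 1. Without MI vehicle replicate 3 it was -0.15 (adjusted p = 0.438).

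**Figure D2:**
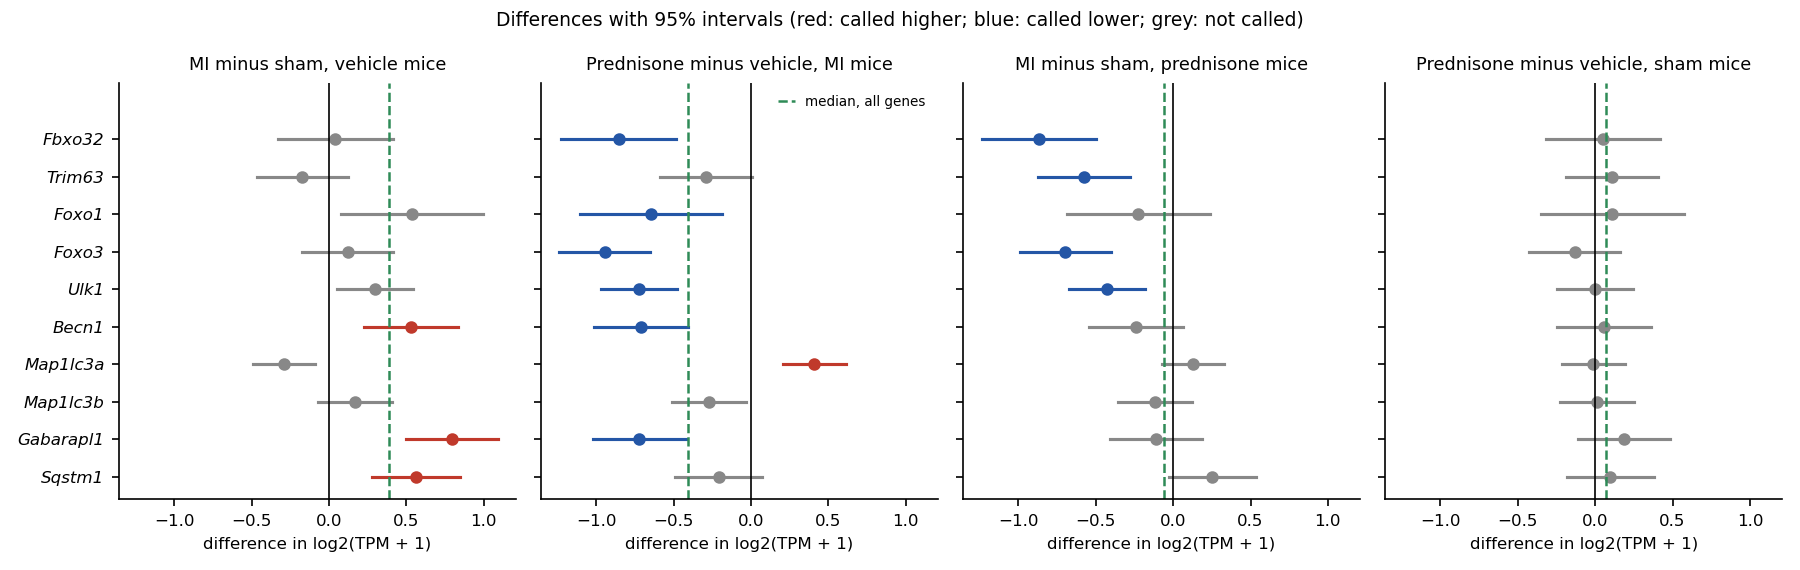
Difference in log2(TPM + 1) (x axis) for the 10 genes (rows) in 4 comparisons, with 95% intervals; red, called higher; blue, called lower; grey, not called; the dashed green line is the median of all genes tested. With prednisone in MI mice 6 genes are blue and Map1lc3a is red, beside a median of all genes of -0.41, and in sham mice all 10 are grey.

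Set against all genes, infarction in vehicle mice raised 3 of the 10 (Gabarapl1, Sqstm1 and Becn1) and lowered none, where 15.1% of the genes tested were called higher and 0.904% lower. The median difference of the 10 was 0.23, below the 0.39 of all genes. Without MI vehicle replicate 3, 1 of the 10 was called (Gabarapl1, 0.69, adjusted p = 0.0223 by limma) against 6.95% of all genes called higher. After rescaling none of the 10 was called higher and 1, Map1lc3a, was called lower, against 3.72% of all genes in each direction. After the length correction none was called, against 3.04% of all genes higher and 3.16% lower, and the former 3 were at 0.37 (Gabarapl1, adjusted p = 0.0775), 0.13 (Sqstm1, adjusted p = 0.588) and 0.12 (Becn1, adjusted p = 0.425).

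Prednisone in MI mice lowered 6 of the 10 (Fbxo32, Foxo1, Foxo3, Ulk1, Becn1 and Gabarapl1) and raised 1 (Map1lc3a). Over all genes 34.9% were called lower and 2.50% higher, and the median was -0.41 against -0.68 for the 10. Without MI vehicle replicate 3 the test called 7 lower, Trim63 joining, against 28.0% of all genes, and Map1lc3a higher, against 3.63%. A fit of only the MI groups called 6.14% of all genes in either direction, among them Foxo3 (adjusted p = 0.0466 by limma) and Ulk1 (adjusted p = 0.0491), and the other 5 of the 7 had adjusted p-values of 0.0529 to 0.142. After rescaling 2 were lower (Foxo3 and Becn1) and 1 higher (Map1lc3a), against 14.2% and 14.6% of all genes. After the length correction 2 were lower (Gabarapl1 and Becn1) and 0 higher, against 7.69% and 8.76%.

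Among prednisone mice, MI lay below sham for 4 of the 10 (Fbxo32, Trim63, Foxo3 and Ulk1) and above it for none, where 14.1% of all genes were lower and 2.73% higher. After rescaling Fbxo32 (-0.77, adjusted p = 0.0394 by limma) and Foxo3 stayed called, 2 of 10 against 14.3% of all genes lower. After the length correction none of the 4 was called (Fbxo32 -0.41, adjusted p = 0.187, and Trim63 -0.61, adjusted p = 0.115), and 1 other gene, Becn1, was (-0.38, adjusted p = 0.0273), against 7.98% of all genes lower. The comparisons share groups: MI vehicle enters those of infarction in vehicle mice and of prednisone in MI mice, and MI prednisone enters the latter and that of infarction in prednisone mice.

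In sham mice none of the 10 passed the test for prednisone. The 4 ligase and FoxO genes differed by 0.05 (Fbxo32), 0.11 (Trim63), 0.11 (Foxo1) and -0.13 (Foxo3), and the 10 genes lay between -0.13 and 0.18 log2. Over the 10 genes the 95% intervals reached down to -0.43 (Foxo3) and up to 0.57 (Foxo1), and that of Map1lc3a ran from -0.21 to 0.19. No gene of the 10 reached an unadjusted p under 0.05 by limma, and 0.114% of all genes were called in either direction.

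The prednisone effect in MI mice therefore was set directly against that in sham mice (the interaction). It was lower for 5 of the 10 genes and higher for 1, where 20.7% of all genes were called lower and 0.540% higher, with a median over all genes of -0.48. Without MI vehicle replicate 3, 6 were lower (Trim63 joining) and 0 higher, against 22.6% of all genes lower. The 5 were Fbxo32 (-0.91), Gabarapl1 (-0.91), Foxo3 (-0.81), Becn1 (-0.77) and Ulk1 (-0.72), and Map1lc3a was higher (0.42). After rescaling, the 5 differences ranged from -0.39 for Fbxo32 to -0.20 for Ulk1 and were not called. After the length correction none of the 10 was called, against 1.14% of all genes lower, and Fbxo32, Foxo3 and Ulk1 were at -0.091, -0.007 and 0.023. After rescaling Map1lc3a was still called (0.97, adjusted p = 0.0406 by limma), against 5.12% of all genes higher. The length correction left it at 0.57 (adjusted p = 0.256).

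Most of the genes were carried by 1 transcript row. Of the transcript rows, 15 held at least 10% of the TPM of their gene. Fbxo32 and Foxo1 each had a single row, and Trim63-202, Gabarapl1-201, Foxo3-203 and Ulk1-201 held 98.1%, 95.3%, 94.6% and 85.8% of their genes. The transcript names and structures are those of GENCODE M21. The same model was fitted to 27769 transcripts. In it 27.1% were lower and 5.92% higher with prednisone in MI mice, and 0.184% were lower and 2.66% higher in MI against sham vehicle mice.

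Map1lc3a split into 2 rows that behaved differently. Map1lc3a-201, the protein-coding transcript of 4 exons, was at 210.0, 251 and 233 TPM in sham vehicle, 239, 259.8 and 272 TPM in sham prednisone, 159, 181 and 161 TPM in MI vehicle and 188, 164 and 166 TPM in MI prednisone. Both infarcted groups lay below both sham groups. MI against sham was -0.47 in vehicle mice (adjusted p = 0.0434 by limma) and -0.57 in prednisone mice (adjusted p = 0.00348, where 15.6% of transcripts were lower), and prednisone in MI mice gave 0.05 (adjusted p = 0.754). Map1lc3a-203, annotated as a processed transcript with 826 bases and 3 exons that starts inside the gene, was at 151 to 198 TPM in the 9 mice of the other groups and at 272, 310.5 and 267 TPM in MI prednisone. Its prednisone difference in MI mice was 0.68 (SE 0.12, adjusted p = 0.00178). In these values the summed gene's rise lay in the row with no annotated coding sequence. That row lies within the span of Map1lc3a-201, and the split between them was not checked on reads. Its share of the gene went from 51.0% ± 3.71 in MI vehicle to 61.7% ± 3.29 in MI prednisone (SD, n = 3).

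Sqstm1 was split in MI prednisone mice. Sqstm1-202, the transcript of 8 exons that held 82.3% of the gene, was at 136 to 148 TPM over the sham groups, 171, 231 and 223 TPM in MI vehicle and 121, 107 and 137 TPM in MI prednisone. Its rise with infarction in vehicle mice was 0.57 (adjusted p = 0.0411 by limma) and its fall with prednisone in MI mice was -0.77 (SE 0.13, adjusted p = 0.00166), whereas the summed gene did not pass the latter test. The difference lay in Sqstm1-204, a transcript of 3 exons and 953 bases at the 3' end of the gene, which held 7.5% of the gene over all mice and was singled out after its values were seen. It was at 73.5, 77.8 and 11.2 TPM in MI prednisone and at most 1.72 TPM in the 9 other mice. That was 34.5%, 36.5% and 6.68% of the gene in MI prednisone replicates 1, 2 and 3. Its difference was 4.63 log2 (SE 0.64, adjusted p = 0.000657). Reads inside exons that both transcripts share cannot tell them apart, so the split is less certain than the sum. The same mice were unequal elsewhere: mitochondrially encoded transcripts took 24.6% and 21.6% of TPM in replicates 1 and 2 and 35.9% in replicate 3, and Fbxo32 was highest in replicate 3.

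**Figure D3:**
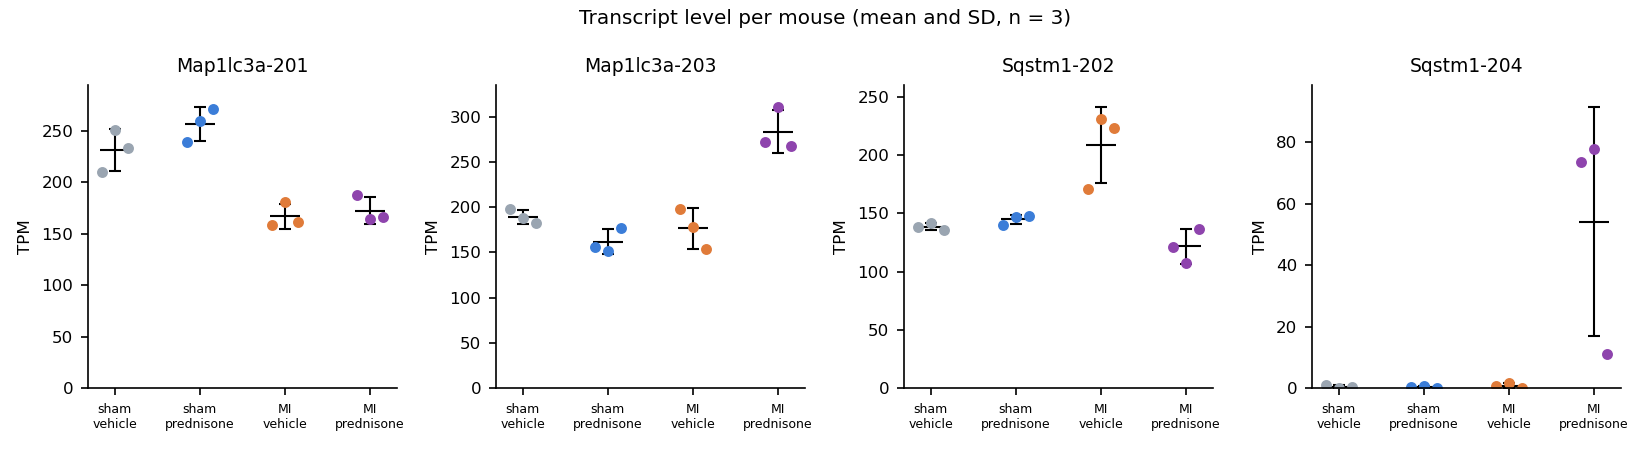
Level in TPM (y axis, from 0) of the 2 main Map1lc3a transcripts and of Sqstm1-202 and Sqstm1-204 in every mouse (points) with group mean and SD (bars, n = 3). Map1lc3a-201 is lower in both infarcted groups, Map1lc3a-203 is higher in MI prednisone, and Sqstm1-204 is at 73.5, 77.8 and 11.2 TPM in MI prednisone and near 0 elsewhere.

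Becn1 was spread over 17 rows, of which Becn1-201 (32.2%), Becn1-211 (28.6%) and Becn1-215 (13.5%) passed 10%. Becn1-211 is annotated as a retained intron, and the other 2 as targets of nonsense-mediated decay. With prednisone in MI mice Becn1-215 fell by 1.43 (adjusted p = 0.00513 by limma) and Becn1-211 by 0.74 (adjusted p = 0.0454), while Becn1-201 gave -0.16 (adjusted p = 0.473). The 3 Map1lc3b rows above 10%, all coding, gave -0.28, -0.43 and -0.04 in that comparison (adjusted p = 0.0512, 0.0529 and 0.944).

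The surrounding pathway was read from 7 lists with 92 genes, all of which passed the filter. In MI against sham vehicle mice 8 of the 92 were higher and 1 lower, 8.70% against 15.1% of all genes higher and 1.09% against 0.904% lower. The 3 largest rises among those with a mean of at least 5 TPM were Tfe3 (0.71, adjusted p = 0.0381 by limma), a transcription factor of lysosomal genes, Snap29 (0.67, adjusted p = 0.0254), a membrane-fusion protein of autophagosomes, and Vmp1 (0.60, adjusted p = 0.0341), a membrane protein needed for autophagosome formation. Fbxo31, another F-box ligase subunit, fell by 0.45 (adjusted p = 0.0348). Without MI vehicle replicate 3, 2 of the 92 (Snap29 and Lamp2) were called higher and 1 (Fbxo31) lower, 2.17% and 1.09% against 6.95% and 0.395% of all genes. After rescaling 0 were higher and 4 lower, 4.35% against 3.72% of all genes, namely Fbxo31 (-0.88, adjusted p = 0.0208), Cited2, Atg4d and Atg10. The names Lamp2, Cited2, Atg4d and Atg10 were picked after their values were seen.

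With prednisone in MI mice 53 of the 92 were lower and 0 higher, 57.6% against 34.9% of all genes, with a median of -0.54 against -0.41. The counts were 11 of 14 FoxO target genes, 6 of 8 cargo receptors, 7 of 11 fusion and lysosome regulators and 8 of 13 other muscle ubiquitin ligases. They were 9 of 15 FoxO family members and upstream kinases, 9 of 19 initiation and nucleation genes and 3 of 12 ATG8 conjugation genes. The 3 largest falls with a mean of at least 5 TPM were Stx17, Lamp2 and Ulk2. Stx17, the syntaxin that brings autophagosomes to lysosomes, went from 10.1, 12.04 and 11.6 TPM in MI vehicle to 3.70, 4.25 and 5.17 TPM in MI prednisone (-1.19, SE 0.14, adjusted p = 0.00058 by limma). Lamp2, a lysosomal membrane protein whose loss causes Danon cardiomyopathy, went from 59.8, 68.6 and 79.4 TPM to 33.3, 25.5 and 30.9 TPM (-1.19, SE 0.13, adjusted p = 0.000447). Neither gene's groups overlapped. Both were called after rescaling (-0.79, adjusted p = 0.00488, and -0.73, adjusted p = 0.00346) and after the length correction (-0.63, adjusted p = 0.017, and -0.70, adjusted p = 0.00588). Ulk2, the paralogue of Ulk1, was lower by -1.07 (adjusted p = 0.00142) and by -0.64 after rescaling (adjusted p = 0.0279), but it was not called after the length correction (-0.42, adjusted p = 0.0908).

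Both rescaling and the length correction changed the balance of the lists. With prednisone in MI mice the length correction left 6 of the 92 lower and 7 higher, 6.52% against 7.69% and 7.61% against 8.76% of all genes. Rescaling left 18 lower and 9 higher, 19.6% against 14.2% and 9.78% against 14.6% of all genes, and the ATG8 conjugation list then had 0 lower and 2 higher, Gabarap and Atg4d. Without MI vehicle replicate 3, 46 were lower and 3 (Pik3r4, Tfeb and Zkscan3) higher, where 28.0% and 3.63% of all genes were called. These 5 names were also picked after their values were seen. In sham mice 0 of the 92 passed the test for prednisone by limma.

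**Figure D4:**
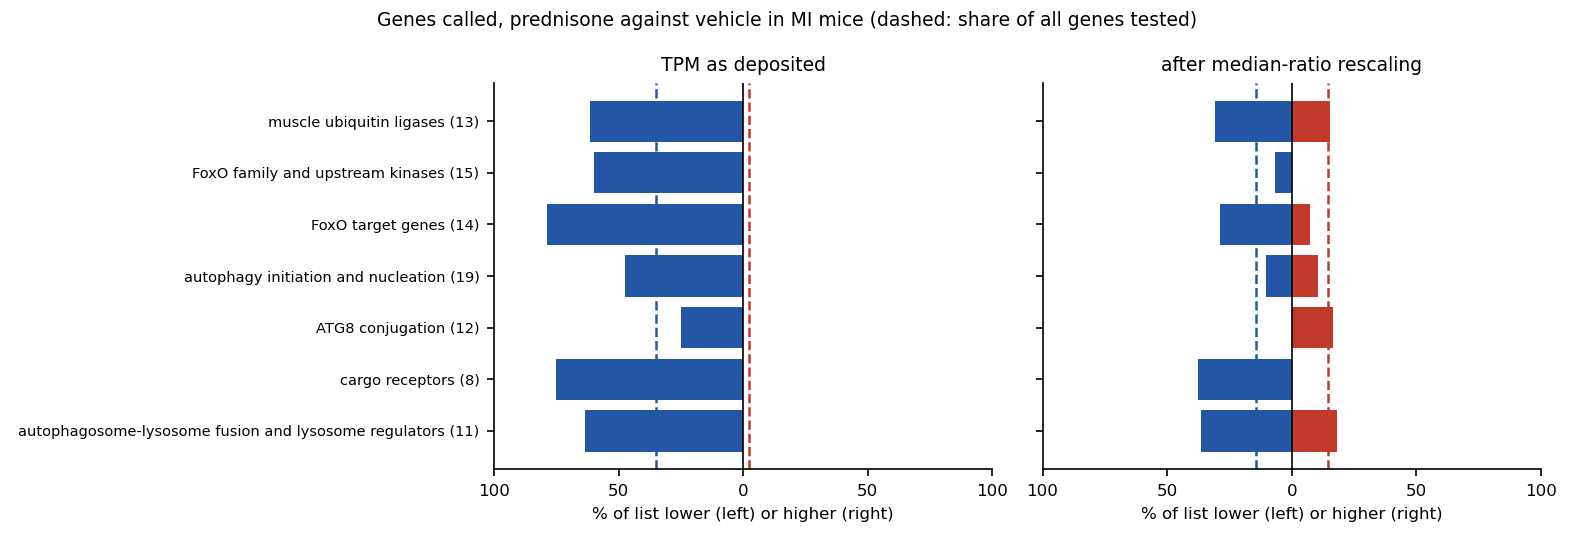
Share of each pathway list (rows, with the number of genes) called lower (blue, left) or higher (red, right) with prednisone in MI mice, in percent on the x axis, for TPM as deposited and after median-ratio rescaling; dashed lines give the shares over all genes tested. As deposited 57.6% of the listed genes were lower against 34.9% of all genes, and after rescaling 19.6% were lower against 14.2%.

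The genes whose log2 profiles over the 12 mice lay closest to those of the ligases were sought among 8115 others with a mean of at least 5 TPM. For Fbxo32 these were Tecrl, Fgf1 and Jmy, with root-mean-square differences of 0.08, 0.08 and 0.10 log2. For Trim63 they were Reep1, Trabd2b and Got2, at 0.07, 0.08 and 0.08 log2.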

How the data were processed

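RNA was measured in 12 myocardium samples by stranded mRNA sequencing, as the labels' protocols describe. Group names came from the sample titles. The authors deposited TPM values for 105129 transcript rows. The submitters' processing notes name Trimmomatic, HISAT2, kallisto and mm10, without versions or roles. Read depth is unknown, and p-values measure only the spread between these mice.

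Rows were summed to genes by symbol, filtered at 1 TPM in at least 3 samples and tested as log2(TPM + 1), which understates changes of low genes, with limma 3.58.1 (R 4.3.3, trended eBayes, 4 group means, spread shared over 12 samples). P-values were adjusted by Benjamini-Hochberg over all genes, and genes called at adjusted p under 0.05. The test was checked on simulated data. Alternatives were median-ratio rescaling, no filter, a pseudocount of 0.1, no trend, single transcripts, a replicate block, 2-group fits, leaving out each mouse, removal of mitochondrial and haemoglobin rows, and a loess correction (span 0.5) for transcript length from GENCODE M21. The length correction with the replicate block was added after seeing the data. The 10 genes and the lists were chosen with earlier results of these data known. The text names all 10, list genes with the 3 largest rises and falls at a mean of at least 5 TPM, and transcripts with at least 10% of their gene. Sqstm1-204 was chosen afterwards. Retreg1 was matched as Fam134b through RefSeq synonyms. Equal replicate numbers in the titles belong to different mice: deviations of same-numbered samples correlated at -0.58 to 0.14, so the numbers were not used as pairs.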

Additional observations from a re-analysis of the deposited data

Results flagged for a closer look

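For 6 genes the prednisone effect in infarcted mice differed from that in sham mice by a direct test of the difference (the limma interaction, adjusted over 13158 genes). The difference was -0.91 log2 for Fbxo32 (adjusted p = 0.0247), -0.81 for Foxo3 (adjusted p = 0.0155), 0.42 for Map1lc3a (adjusted p = 0.0415), -0.91 for Gabarapl1 (adjusted p = 0.0121), -0.72 for Ulk1 (adjusted p = 0.0137) and -0.77 for Becn1 (adjusted p = 0.0216). The median of all genes in the same test was -0.48, and 20.7% of all genes were called lower and 0.540% higher. After the length correction none of the 6 was called, with Fbxo32 at -0.091, Foxo3 at -0.007, Map1lc3a at 0.57, Gabarapl1 at -0.53, Ulk1 at 0.023 and Becn1 at -0.51. Gabarapl1 and Ulk1 were called in all 12 fits that left out 1 mouse. Foxo3 was not called without sham vehicle replicate 1 (adjusted p = 0.05). Fbxo32 was not called in 5 of these fits, without sham vehicle replicate 1 or 3, sham prednisone replicate 1 or 2 or MI prednisone replicate 1 (adjusted p = 0.0672, 0.0577, 0.0571, 0.0615 and 0.0574). Becn1 was not called in 5, without sham vehicle replicate 1 or 3, sham prednisone replicate 2 or 3 or MI prednisone replicate 1 (adjusted p = 0.064, 0.056, 0.0527, 0.0515 and 0.0554). Map1lc3a was called in 3 of the 12, those without MI vehicle replicate 1 or 2 or MI prednisone replicate 3. Its highest adjusted p was 0.101, without sham prednisone replicate 1.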

How the results depend on the processing

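The number of the 10 genes called depended on how the libraries were scaled. For MI against sham in vehicle mice 3 became 1 after median-ratio rescaling, 0 after the length correction, 0 after it with the replicate block and 0 in a fit of only those 2 groups, which called 2 of 13158 genes in all. It ranged from 0 to 6 with 1 mouse left out, and in the fit with 6, without MI vehicle replicate 1, 42.8% of all genes were called. The fit with 0, without sham vehicle replicate 3, called 0.912%. Over all genes the main fit of this comparison called 16.0%, rescaling 7.44%, the length correction 6.20% and the correction with the block 0.579%. For prednisone in MI mice 7 became 3, 2, 1 and 2 in the same order. There 37.4% of all genes were called in the main fit and 28.8% after rescaling. After the length correction 7.69% were lower and 8.76% higher. The share after that correction with the block is not given, so its count of 1 is not read further. For MI against sham in prednisone mice 4 became 2 after rescaling, 1 after the length correction (Becn1, which is not among the 4) and 0 after it with the replicate block, and ranged from 2 to 4 with 1 mouse left out. Of all genes 14.1% were lower and 2.73% higher there, 14.3% and 11.7% after rescaling, and 7.98% and 4.93% after the length correction. Without MI vehicle replicate 3, 4 of the 10 were called, and 22.9% of all genes were lower and 7.27% higher. Shares for the block fit and the other leave-out fits are not given here either, so those counts are not read further. For the interaction 6 became 1, 0 and 0, and ranged from 2 to 7. Of all genes 20.7% were lower and 0.540% higher in it, 4.93% and 5.12% after rescaling, and 1.14% and 0.892% after the length correction. Without MI vehicle replicate 3, 6 of the 10 were called, and 22.6% of all genes were lower and 0.874% higher. Interaction shares for the block fit and the other leave-out fits are not given, so those counts alone say nothing particular to the 10. For prednisone in sham mice 0 were called under every alternative run. Among single genes, the replicate block alone ended the call of Map1lc3a in the interaction (adjusted p = 0.0608) and changed no other call.

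Directions turned as follows, and the cause was not tested. Genes not called in the interaction or in infarction among prednisone mice are described here only under some alternatives. These are rescaling, the length correction and the fit without MI vehicle replicate 3. Prednisone in sham mice is not listed. For MI against sham in vehicle mice, rescaling gave Fbxo32 -0.38, Foxo3 -0.29, Map1lc3b -0.27 and Ulk1 -0.13. The length correction gave -0.32, -0.25, -0.26 and -0.12 for these 4, with or without the replicate block, and removal of mitochondrial and haemoglobin rows gave -0.19, -0.11 and -0.072 for Fbxo32, Foxo3 and Map1lc3b. With 1 mouse left out Fbxo32 ranged from -0.031 to 0.11 and Foxo3 from -0.002 to 0.18. For prednisone in MI mice, rescaling gave Trim63 0.16, Map1lc3b 0.19 and Sqstm1 0.25, and the length correction, with or without the block, gave Trim63 0.065, Foxo1 0.055, Map1lc3b 0.038 and Sqstm1 0.16. For MI against sham in prednisone mice, the length correction turned Foxo1 to 0.28 and Map1lc3a to -0.10, both not called. In the interaction, rescaling turned Trim63 to 0.14, Map1lc3b to 0.26 and Sqstm1 to 0.24, none of them called. The length correction gave Ulk1 0.023, Foxo1 0.071, Map1lc3b 0.062 and Sqstm1 0.10, and the most abundant transcript of Map1lc3a gave -0.10. That transcript also moved the Map1lc3b to Map1lc3a log2 ratio to 0.72 for MI against sham and to -0.33 for prednisone in MI mice.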
